A study of Homo sapiens with 4 samples.

Results

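The bins described here lay below input in the lamin B1 tables of both LNCaP and VCaP cells. They were selected on the measured enrichment itself: autosomal bins of 40 kb were chosen by a log2 value between -0.8 and -0.2 in LNCaP and at or under -0.2 in VCaP. Of 67170 autosomal bins of that width with a value in both lines, 4844 met the rule, a total of 193.76 Mb. Lamin B1 was mapped by chromatin immunoprecipitation and sequencing in formaldehyde-fixed cultures, with an input library without antibody for each line. LNCaP is labelled as an established prostate adenocarcinoma line and VCaP as an established line of bone metastatic prostate cancer. The 4 libraries, 1 lamin B1 and 1 input library per line, form 4 groups of 1, so no value below has a replicate check and no difference between the lines was tested. The read depth behind the values is unknown.

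Lamin B1 is a filament protein of the nuclear lamina, the mesh that lines the inner nuclear membrane. Chromatin touching the lamina is recovered with it, and in many cell types this chromatin is gene-poor, AT-rich, late in replication and low in transcription. The stretches between such domains are usually richer in active genes and lie deeper in the nucleus. A log2 value below 0 means that a bin was recovered less often with the antibody than in input, after a scaling between the 2 libraries that the sources used here do not give. It does not by itself place the bin in the nuclear interior.

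The chosen bins had moderate depletion in both lines, somewhat deeper in VCaP. The median log2 enrichment was -0.36 in LNCaP (interquartile range -0.47 to -0.27, lowest -0.80, highest -0.20). In VCaP it was -0.46 (interquartile range -0.63 to -0.33, lowest -1.58, highest -0.20). Over all tested bins the medians were 0.06 in LNCaP and 0.19 in VCaP, so the same threshold lay farther below the middle of the VCaP values. These levels chose the bins and are given as a description. VCaP was the lower line in 3290 of the 4844 bins, or 67.9%, against 41.8% of all tested bins. The median VCaP minus LNCaP difference was -0.10 in the chosen bins (interquartile range -0.26 to 0.04) and 0.10 in all tested bins. A lower limit applied to LNCaP and not to VCaP, and 449 of the bins lay under -0.8 in VCaP. With that limit in both lines the median difference was -0.07. Bins 3 apart within the chosen set gave a noise SD of 0.16 for the difference in a single bin, and over all tested bins it was 0.20. Within the chosen set both bins of a pair passed the limits, which narrows their spread. The noise SD gives no error for a median over many bins, and with 1 library pair per line there is none between replicates.

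**Figure D1:**
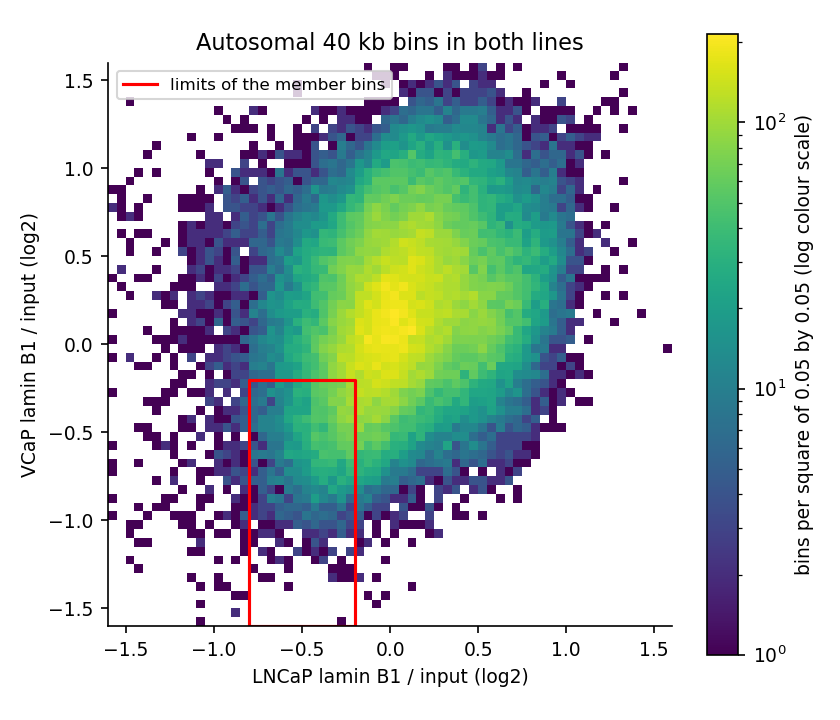
Log2 lamin B1 enrichment over input in LNCaP (x axis) and VCaP (y axis) for autosomal 40 kb bins, with colour giving the number of bins per square of 0.05 by 0.05 on a log scale and the red outline giving the limits of the rule. The 4844 bins inside the outline form the lower left flank of 1 continuous cloud and no separate cluster, and 158 of the 67170 bins lie outside the plotted range.

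The limits cut through a continuous distribution. The bin just inside the LNCaP threshold, on chromosome 2 from 165560001 to 165600000, had -0.200005 in LNCaP and -0.769931 in VCaP. The bin just outside it, on chromosome 5 from 108720001 to 108760000, had -0.199996 and -0.281011. At the lower LNCaP limit, the bin on chromosome 1 from 8520001 to 8560000 was inside with -0.799291, and the bin on chromosome 3 from 175080001 to 175120000 was outside with -0.802861. At the VCaP threshold, the bin on chromosome 8 from 103160001 to 103200000 was inside with -0.200354, and the bin on chromosome 11 from 89480001 to 89520000 was outside with -0.199937. All positions are in hg19, counted from 1. Values on either side of each limit differed far less than the noise between bins, which had an SD of 0.15 in LNCaP and 0.22 in VCaP over all tested bins.

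The authors' deposited state labels placed all 4844 bins outside the associated state in both lines. The labels are AD and iAD, and AD is the state with the higher enrichment. The background is that 62.6% of tested bins were iAD in LNCaP, 56.0% in VCaP and 38.7% in both. The chosen bins made up 18.6% of the bins that were iAD in both lines. The other 21160 such bins had a median of -0.07 in LNCaP and -0.04 in VCaP, with interquartile ranges of -0.19 to 0.04 and -0.20 to 0.12. They also include bins lower than any chosen one, down to -3.49 in LNCaP and -1.88 in VCaP, since bins under the LNCaP limit are left out of the chosen set. The states come from the same values as the rule and add no separate evidence.

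How far the lines shared their low bins was described next. In LNCaP 13403 bins lay between -0.8 and -0.2, which was 20.0% of tested bins, and in VCaP 12722 bins lay at or under -0.2, which was 18.9%. The 4844 bins low in both were 7.21% of tested bins. They made up 36.1% of the LNCaP list and 38.1% of the VCaP list. Thus 8559 of the LNCaP low bins were above the threshold in VCaP, and most low bins of either line were not low in the other. On 21 of the 22 autosomes the share of LNCaP low bins that were also low in VCaP was above the chromosome's own VCaP share. The exception was chromosome 21, where it was 20.91% against 20.93%. The same held in 292 of 349 windows of 5 Mb that had at least 10 LNCaP low bins and at least 10 others.

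The share of bins low in the other line changed with depth in VCaP more than in LNCaP. Where VCaP was between -0.3 and -0.2, 27.6% of bins were at or under -0.2 in LNCaP. This share was 41.0% for VCaP values between -0.5 and -0.4, 56.3% between -0.8 and -0.6, and 73.2% in the 719 bins at or under -0.8. It was higher in each successive band of deeper VCaP depletion. In the other direction it levelled off. Where LNCaP was between -0.3 and -0.2, 32.4% of bins were low in VCaP, and the share was 40.9% between -0.5 and -0.4 and 38.6% between -0.8 and -0.6. In the 787 bins under -0.8 in LNCaP it was 32.0%, with a VCaP median of 0.16. The deepest LNCaP bins, which the rule leaves out, were therefore no more often low in VCaP than bins just past the threshold. Bins of LNCaP over 0.5 were low in VCaP in 7.13% of cases. Within the chosen bins the levels of the lines were only weakly related, with a Pearson r of 0.15 and a Spearman rho of 0.13 over 4844 bins, which share libraries and averaged neighbours and have a cut range.

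The chosen bins were spread very unevenly over the chromosomes. Their share was highest on chromosome 13, at 15.6% of tested bins (374 of 2394), followed by chromosome 21 at 14.6% (129 of 884), chromosome 12 at 11.6% (379 of 3265) and chromosome 4 at 11.1% (523 of 4692). These 4 chromosomes held 29.0% of the chosen bins and 16.7% of the tested bins. The share was lowest on chromosome 19, at 0.50% (7 of 1398), and on chromosome 16, at 0.71% (14 of 1976). Chromosome 22 had 2.06% (18 of 875), chromosome 17 had 2.93% (57 of 1948), chromosome 1 had 3.08% (174 of 5647) and chromosome 20 had 3.08% (46 of 1492). These 6 chromosomes held 6.52% of the chosen bins and 19.9% of the tested bins. On 9 of the 22 autosomes the share was above that of all autosomes together. On chromosome X, which the rule leaves out, 183 of 3722 bins, or 4.92%, passed the same limits, and on chromosome Y, also left out, 77 of 544 did, or 14.2%.

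The low chromosomes differed in which line had few low bins. On chromosome 16 few bins were low in either line, with 1.37% in LNCaP and 2.99% in VCaP. On chromosome 19, 20.3% of bins were low in LNCaP, near the genome-wide share, but 0.787% were low in VCaP. On chromosome 22, 31.2% were low in LNCaP and 2.74% in VCaP, and on chromosome 17 the shares were 25.9% and 6.98%. Chromosomes 14 and 18 went the other way, with 7.48% and 7.87% in LNCaP and 18.5% in VCaP on both. On chromosome 21, 69.8% of bins were low in LNCaP and 20.9% in VCaP, so LNCaP covered most of the chromosome and VCaP set which bins were shared. Chromosome 13 was above the genome-wide share in both lines, with 35.3% in LNCaP and 27.6% in VCaP. Chromosome 4 had 19.5% in LNCaP, close to the genome-wide share, and 27.7% in VCaP. On chromosome 4, 57.0% of the LNCaP low bins were also low in VCaP.

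**Figure D2:**
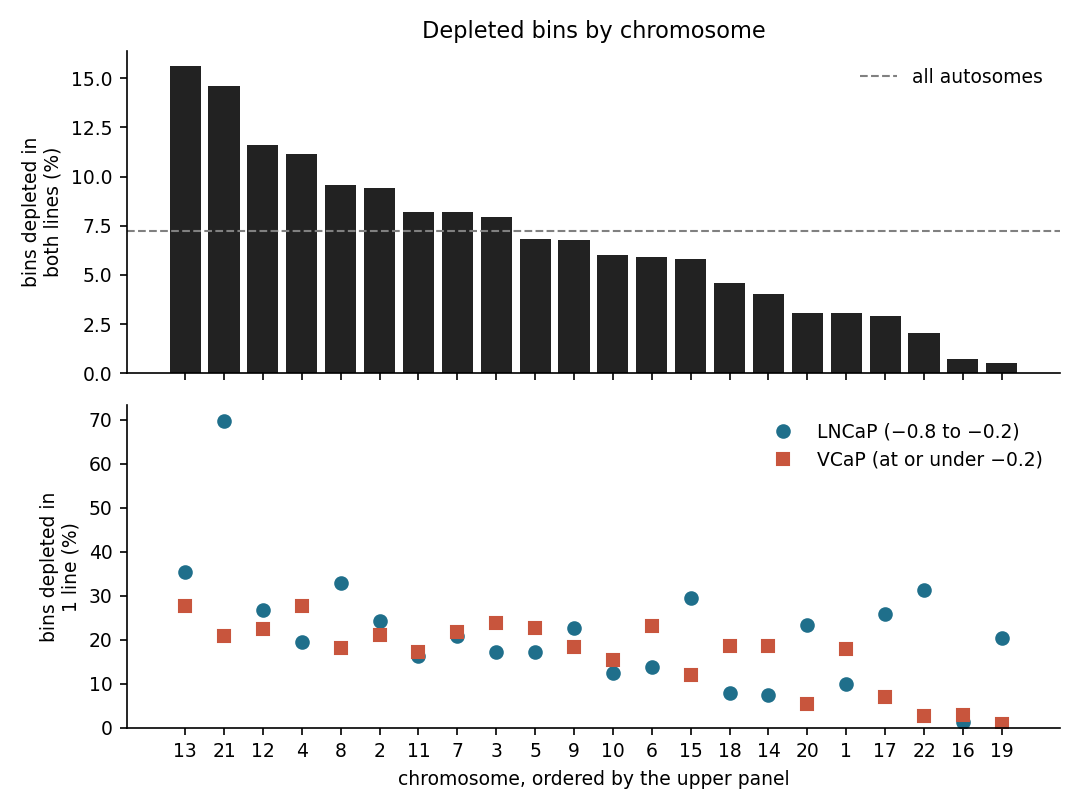
Upper panel, the percentage of tested 40 kb bins that were depleted in both lines for each autosome, with the dashed line at the 7.21% of all autosomes. Lower panel, the percentage depleted in LNCaP (circles) and in VCaP (squares) on the same chromosomes, where VCaP shares are small on chromosomes 16, 17, 19, 20 and 22 and the LNCaP share of chromosome 21 stands at 69.8%.

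The share of chosen bins tended to be lower on chromosomes with more protein-coding genes for their length, with exceptions in both directions. As background, chromosome 19 is the most gene-dense human chromosome, and chromosomes 4, 13 and 18 are gene-poor. Genes were counted by chromosome name in the RefSeq gene table of GRCh38.p14, with none of its coordinates used, and divided by the hg19 length of the chromosome. Chromosome 13 had 2.93 protein-coding genes per Mb, chromosome 4 had 4.02, chromosome 16 had 9.45, chromosome 17 had 14.4 and chromosome 19 had 24.5. Over the 22 autosomes the share of chosen bins and the gene density had a Spearman rho of -0.67 and a Pearson r of -0.58. Without chromosomes 17 and 19, which lay farthest from the median density, rho was -0.57 and r was -0.57. The share of VCaP low bins had a rho of -0.70 with gene density and the share of LNCaP low bins a rho of -0.16. With chromosome length the rho was 0.36 for the share of chosen bins, 0.59 for VCaP low bins and -0.27 for LNCaP low bins. These are descriptions over chromosomes of 1 library pair per line. Chromosome 18 went against the trend, with 3.46 genes per Mb and a share of chosen bins of 4.60%. So did chromosome 11, with 9.64 genes per Mb and a share of 8.19%, and chromosome 12, with 7.65 genes per Mb and a share of 11.6%. The trend over whole chromosomes runs opposite to the usual pattern given above, in which stretches between lamina domains are richer in active genes. That pattern concerns single stretches and active genes, so the trend does not show that the chosen bins themselves were gene-poor. Whether gene density or chromosome length has a part in the result was not tested. Genes within single bins were not analysed here.

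Depletion shared by both lines was rare near chromosome ends. Within 2 Mb of an end 29 of 1874 bins were chosen, or 1.55%, and 14 of the 22 autosomes had none there. The share was 1.51% from 2 to 5 Mb, 3.28% from 5 to 10 Mb, 4.61% from 10 to 20 Mb, 7.70% from 20 to 50 Mb and 10.0% farther than 50 Mb. Only long chromosomes reach that last class, which 15 autosomes have. Within single chromosomes the outer 10 Mb had a lower share than the rest on 18 of 22 autosomes, and the exceptions were chromosomes 15, 18, 19 and 20. The trend lay mostly in VCaP. There the share of low bins was 3.58% within 2 Mb of an end and 27.5% beyond 50 Mb, and the median enrichment fell from 0.69 to 0.04. In LNCaP the share of low bins was 17.0% and 20.4% in the same classes, and the median was 0.12 and 0.04. Bins within 5 bins of a gap in the table or of a chromosome end made up 1.20% of the chosen bins and 1.84% of the tested bins.

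**Figure D3:**
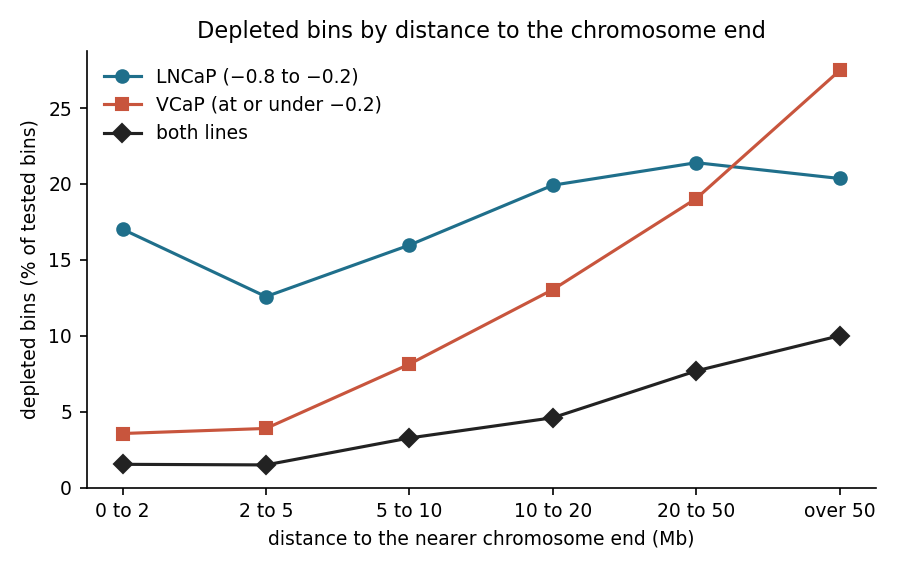
Percentage of tested autosomal bins that were depleted in LNCaP (circles), in VCaP (squares) and in both lines (diamonds), by distance in Mb to the nearer chromosome end. The share depleted in both lines is 1.55% in the outermost 2 Mb and 10.0% beyond 50 Mb, and the VCaP share shows the steeper change.

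Bins enriched in both lines were placed differently along the chromosomes. For this comparison the rule was mirrored, with LNCaP between 0.2 and 0.8 and VCaP at or over 0.2, which 13007 bins met, or 19.4% of tested bins. Their share was 32.6% within 2 Mb of a chromosome end and 13.7% beyond 50 Mb. It was 57.7% on chromosome 16, where the depleted share was 0.71%, and 1.58% on chromosome 21, where the depleted share was 14.6%. On chromosome 13 it was 9.61%. Chromosomes 19 and 1, which also had few depleted bins, had enriched shares of 25.8% and 25.7%, above the overall share. Not all chromosomes were mirror images. Chromosomes 17, 20 and 22 had few depleted bins, and their enriched shares of 17.1%, 14.1% and 18.97% were not above the overall share. Chromosome 11 was above the overall share in both sets, at 23.04% and 8.19%, and so was chromosome 8, at 20.4% and 9.58%. The limits are not centred on either line's median, which was above 0 in both, and the difference in size of the sets was not tested.

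Along the chromosomes the chosen bins fell into 1632 runs of adjacent bins. The median run had 2 bins (interquartile range 1 to 4), and 562 runs were single bins. Runs of at least 5 bins, or 200 kb, numbered 281 and held 2134 of the chosen bins, or 44.1%, on 20 of the 22 autosomes. Runs of at least 10 bins numbered 51 and held 708 bins. Each deposited value appears to average 3 entries, the bin and the pair that precedes it, so neighbours are not independent and positions lie about 40 kb downstream of the signal. Longer runs were deeper in both lines, which a threshold on averaged neighbours favours, so their means are given as a description. Single bins had means of -0.34 in LNCaP and -0.38 in VCaP, and bins in runs of at least 10 had means of -0.42 and -0.57. Of the 281 runs of at least 5 bins, VCaP had the lower mean in 221, with a median difference of -0.12 and a range of -0.92 to 0.46. Of the mirrored, enriched bins 67.8% lay in runs of at least 5 bins. That set was larger, at 19.4% of tested bins against 7.21%, so these shares are not matched for set size.

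With the 3-entry average undone, 66.3% of the chosen bins remained at or under -0.2 in both lines, against 9.95% of all tested bins. The undone value is part of the average that chose the bin, so a higher share than in all tested bins follows from the rule. The share was 77.0% for LNCaP alone and 79.3% for VCaP alone. The undone medians were -0.36 in LNCaP and -0.46 in VCaP, the same to 2 decimals as the deposited ones, and the undone values were more scattered. The rest owed their place, in at least 1 line, to the entries averaged with them.

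The longest run covered 30 bins on chromosome 21 from 28480001 to 29680000. Its values ranged from -0.76 to -0.26 in LNCaP, with a mean of -0.47, and from -0.85 to -0.28 in VCaP, with a mean of -0.50. The 10 bins on either side had LNCaP means of -0.38 and -0.61 and VCaP means of -0.11 and -0.34. In VCaP the run was lower than both flanks, but the flank after it was still under the threshold. In LNCaP both flanks were under the threshold, and the flank after the run was lower than the run itself. The nearest associated bin was 1600 kb away in LNCaP and 1160 kb away in VCaP.

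A run of 22 bins on chromosome 4 from 97000001 to 97880000 had means of -0.43 in LNCaP and -0.49 in VCaP. Its flanks were also low, at -0.35 and -0.26 in LNCaP and -0.29 and -0.45 in VCaP. A run of 21 bins on chromosome 7 from 79760001 to 80600000 had means of -0.40 in LNCaP and -0.64 in VCaP. In LNCaP its flanks were unequal, with a mean of 0.37 in the 10 bins before and -0.16 in the 10 bins after, and the nearest associated bin was 120 kb away. In VCaP the flanks were 0.03 and -0.23, and the nearest associated bin was 1880 kb away.

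A run of 20 bins on chromosome 13 from 70440001 to 71240000 had means of -0.46 in LNCaP and -0.62 in VCaP. The lines differed in its surroundings. In LNCaP the following 10 bins had a mean of 0.17 and an associated bin lay 80 kb away, whereas in VCaP they had a mean of -0.32 and the nearest associated bin was 8320 kb away. A second run on that chromosome, of 18 bins from 104600001 to 105320000, had means of -0.55 and -0.64, with flanks of -0.27 and -0.33 in LNCaP and 0.13 and -0.01 in VCaP. Of the 10 longest runs it had the lowest mean over both lines, -0.59.

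Chromosome 8 held a run of 19 bins from 100000001 to 100760000, with means of -0.49 in LNCaP and -0.42 in VCaP. This was the only one of the 10 longest runs in which LNCaP was the lower line. Its nearest associated bin was 5120 kb away in LNCaP and 520 kb away in VCaP. The other run on chromosome 8, of 18 bins from 77240001 to 77960000, had means of -0.33 and -0.60.

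The remaining 3 of the 10 longest runs were on chromosomes 10, 12 and 4. The run of 19 bins on chromosome 10 from 61840001 to 62600000 had means of -0.44 in LNCaP and -0.52 in VCaP. Its LNCaP flanks lay near input level, at -0.05 and -0.01. The run of 19 bins on chromosome 12 from 60440001 to 61200000 had means of -0.37 and -0.51. The run of 17 bins on chromosome 4 from 70160001 to 70840000 had means of -0.44 and -0.63. Its VCaP flanks were also low, at -0.67 before and -0.55 after the run. In that run the lowest single values were -0.78 in LNCaP and -0.83 in VCaP. None of the 10 runs held a bin within 5 bins of a gap.

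**Figure D4:**
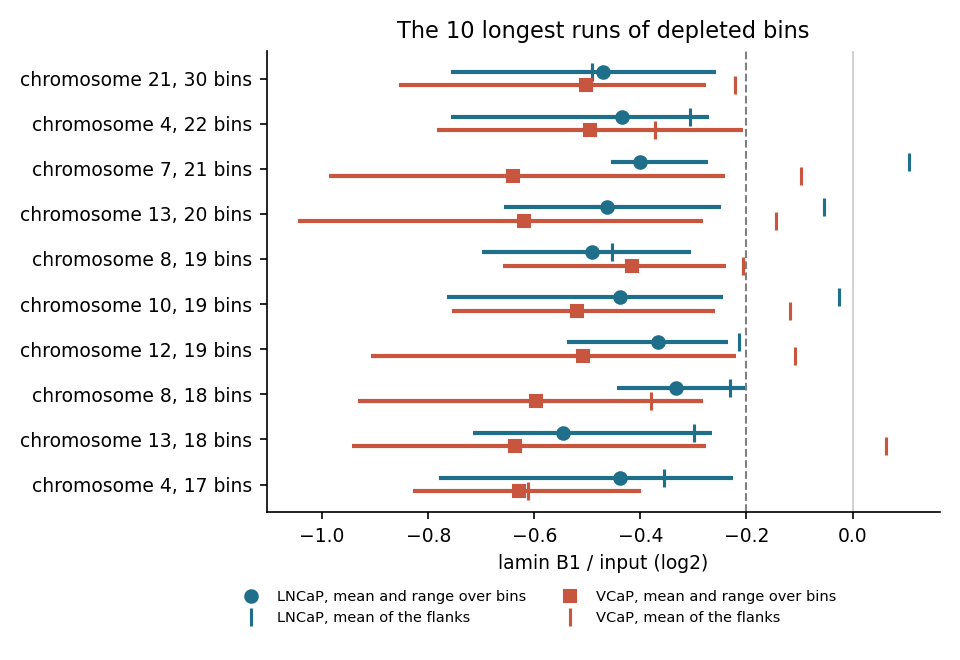
Log2 lamin B1 enrichment over input in the 10 longest runs of bins depleted in both lines, ordered by length, with markers for the mean over bins, horizontal lines from the lowest to the highest bin, and vertical ticks for the mean of the 10 bins before and the 10 bins after. The dashed line marks the threshold of -0.2, and the tick is the average of both flanks, so it hides their difference, as in the run of 21 bins on chromosome 7 with LNCaP flanks of 0.37 and -0.16.

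The runs with the lowest mean over both lines were short, and their VCaP means were far lower than their LNCaP means. The rule has a lower limit in LNCaP and none in VCaP, so among chosen bins only VCaP values could lie under that limit. Whether this limit accounts for the gap between the lines in these runs was not tested. Among runs of at least 5 bins, the lowest was on chromosome 14 from 37720001 to 37960000, with 6 bins and means of -0.50 in LNCaP and -1.06 in VCaP. On chromosome 13 from 72280001 to 72520000, 6 bins had means of -0.30 and -1.22. This run had the largest gap between the lines of all 281 runs, and its VCaP values lay between -1.34 and -1.08. On chromosome 12 from 81560001 to 81800000, 6 bins had means of -0.47 and -1.05, and the nearest VCaP associated bin was 11960 kb away. A pair of runs on chromosome 2, from 192800001 to 193160000 and from 193240001 to 193440000, had means of -0.52 and -0.96 and of -0.49 and -0.95. They were separated by 80 kb. The flanks after the 5 runs, in this order, had VCaP means of -0.88, -0.41, -0.77, -0.95 and -0.92. Their LNCaP means were -0.47, 0.07, -0.82, -0.48 and -0.43, and the -0.82 lay under the lower limit. The flanks before ranged from -1.18 to 0.01 in VCaP and from -0.48 to -0.03 in LNCaP. The mean VCaP level thus stayed under the threshold after each run. Whether the limits of the rule set the length of these runs was not tested. In these 5 runs the VCaP minus LNCaP difference ranged from -0.92 to -0.44, and as extremes of the values used to choose them they are given as a description.

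The surroundings of the 281 runs of at least 5 bins, which are the ones profiled, lay a little below input level on average. Their 10-bin flanks had a median of -0.13 in LNCaP and -0.09 in VCaP. At the middle of these runs the mean was -0.44 in LNCaP and -0.61 in VCaP. At 400 kb before the middle the means were -0.12 and -0.10, and at 400 kb after it they were -0.12 and -0.10. At 2000 kb on either side they were -0.02 and -0.01 in LNCaP and 0.01 and -0.02 in VCaP, still below the means of all tested bins, 0.07 and 0.19. The VCaP surroundings thus lay farther below their genome-wide mean than those of LNCaP. At 2000 kb from the middle, 12.4% of bins before and 12.7% after were themselves chosen, against 7.21% of all tested bins. That background was not matched for chromosome or for distance to a chromosome end, and the share of chosen bins differed with both. Of 558 flanks of 10 bins, 140 had a mean over 0 in LNCaP and 195 in VCaP.

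**Figure D5:**
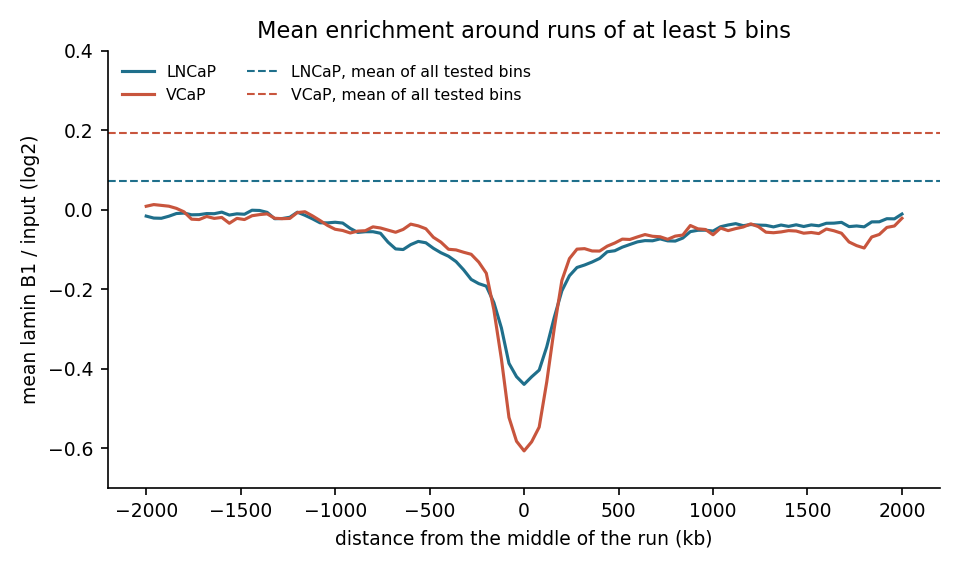
Mean log2 lamin B1 enrichment over input against distance from the middle of 281 runs of at least 5 bins depleted in both lines, for LNCaP and VCaP, with dashed lines for the means of all tested bins. The means reach -0.44 in LNCaP and -0.61 in VCaP at the middle, which the rule fixes, and stay below the dashed lines out to 2000 kb on both sides.

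Chosen bins lay somewhat farther from associated chromatin than other bins outside it. The states come from the same averaged values as the rule, which favours such a gap, so the distances are given as a description. The median distance to the nearest associated bin, from bin start to bin start, was 920 kb in both lines, over the 4797 bins in LNCaP and 4825 in VCaP with one in the same unbroken stretch of the table. For the other bins that were iAD in both lines it was 680 kb in LNCaP and 640 kb in VCaP. Still, 28.9% of the chosen bins had an associated bin within 400 kb in LNCaP and 34.4% in VCaP, against 36.3% and 39.9% of the other bins. Of 1284 stretches that were iAD in both lines, 771 held at least 1 chosen bin. The median length was 15 bins for these and 6 for those without one, and longer stretches have more bins to choose from.

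At a larger scale the chosen bins were gathered in a minority of windows. Of 520 windows of 5 Mb with at least 100 tested bins, 85 held none, and the 87 richest windows held at least 50% of the 4765 chosen bins in these windows. The windows named next were picked after their values were seen. The richest was on chromosome 2 from 190000001 to 195000000, where 63 of 125 bins were chosen, or 50.4%, and which holds both chromosome 2 runs named above. Chromosome 4 had 60 of 125 bins from 70000001 to 75000000 and 57 of 125 in the window before it. Chromosome 13 had 57 of 125 bins from 60000001 to 65000000 and 51 of 125 from 90000001 to 95000000. Median levels over the whole window were -0.22 in LNCaP and -0.30 in VCaP in the chromosome 2 window and -0.40 and -0.34 in the window on chromosome 4 from 70000001.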

How the data were processed

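Lamin B1 ChIP and input libraries of LNCaP and VCaP were grouped by the labels. The deposited log2 values give ChIP over input per entry. The scaling and filters are not given in the sources used here, and hg19 and STAR are named in the submitters' processing notes without a role. The authors' deposited state labels come from a hidden Markov model, per the file names. The first 2 entries of each chromosome lack a value. Entries wider than 40 kb numbered 194 in LNCaP and 212 in VCaP. Their median absolute value fell from 0.21 and 0.33 to 0.007 in each line when a trailing mean of 3 entries was undone, so values were treated as such means.

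Bins with the same span in both tables were joined and the rule applied. Noise is 1.4826 times the median absolute difference of bins 3 apart, divided by the square root of 2. It also contains any real change in enrichment between those bins. Regions named are the 10 longest runs, the 5 runs of at least 5 bins with the lowest mean, the chromosomes of highest and lowest share and the bins beside each limit. Members, lists and rules were chosen with earlier results of these data known. No test was made. Planned gene and GC comparisons within bins were not made, as the gene table is of GRCh38. No sequence is printed for the same reason. The run finder was checked on artificial domains laid over the bins. These were longer than the median run and had less noise than the data. The check therefore covers the code and not how noise splits runs here. Software was Python 3.11.15, pandas 2.3.3, numpy 2.4.6, scipy 1.17.1 and, for plots, matplotlib 3.10.9.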

Additional observations from a re-analysis of the deposited data

How the results depend on the processing

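Of 72 alternative values for 8 results, 37 stayed within the tolerance and 35 moved. Counts and shares cannot change sign, and the 9 alternative values of the median difference were all below 0. The tolerance was the 95% binomial interval of a share or median, or 1.5 times a count. The interval counts bins as independent, although neighbours share averaged entries, and it holds no variation between replicates. Staying within it or moving past it is therefore only a rough guide. Chromosomes 19 and 16 had the lowest shares under each alternative. Chromosome 13 was among the highest 2 under each, and chromosome 21 under each but the undone mean, where chromosome 12 took its place.

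A threshold of -0.1 gave 8342 bins, an overlap of 41.1% of LNCaP low bins, a median VCaP minus LNCaP difference of -0.0860 and shares of 24.6%, 20.4% and 1.37% on chromosomes 13, 21 and 16. A threshold of -0.3 gave 2573 bins in 1006 runs, an overlap of 31.4% and shares of 9.73%, 9.28% and 0.20% on these chromosomes. Without the lower limit in LNCaP the difference was -0.0860 and the share of chromosome 21 was 19.3%. With it in both lines the overlap was 32.8%, the difference -0.0722 and the share of chromosome 13 was 13.9%. Centring each line on its median gave 8550 bins in 2473 runs, an overlap of 50.5% (VCaP background 32.6%), a difference of -0.14 and shares of 26.3%, 22.5% and 1.29% on chromosomes 13, 21 and 19. Undoing the 3-entry mean gave 6124 bins in 3764 runs, of which 3003 bins were shared with the reported set, an overlap of 41.4%, a difference of -0.11 and a share of 12.0% on chromosome 21. Runs of at least 5 bins numbered 281. Added after seeing the data, centring with the lower limit in both lines gave 2680 runs, an overlap of 41.9%, a difference of -0.0862 and shares of 21.5%, 21.3% and 1.22% on chromosomes 13, 21 and 19. Using only bins that share no averaged entry, also added then, moved no value past the tolerance, and leaving out the 5 bins beside gaps moved none either. The number of bins thus depends on the threshold and the zero point of each line, and the cause of the other changes was not tested. The GC and gene alternatives that had been planned were not computed, as the gene table is of GRCh38. No paired analysis was possible because both lines have a lone library pair. Bin-to-bin noise is the only measure of scatter at hand, since read depth is unknown.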
